A study of Mus musculus with 12 samples.

Results

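Loss of *Tbr1* was examined in the neocortex of mouse embryos at E14.5, an embryonic stage at which deep-layer neurons have largely been born and upper-layer neurogenesis begins. The arrays labelled as *Tbr1* knockout (*Tbr1* KO, 4 embryos) were compared with those labelled as wild type (controls, 3 embryos), 7 of the 12 arrays of the series. Each array (Affymetrix Mouse Exon 1.0 ST) measured RNA from the dissected neocortex of a single embryo. *Tbr1* KO embryos carried a germline null mutation on both alleles (*Tbr1*-/-), so that *Tbr1* was lost in every cell of the embryo and not in neocortex alone. Controls had both wild-type *Tbr1* alleles and a *Tbr2* allele that was not recombined. The labels and methods do not say whether *Tbr1* KO embryos also carried a floxed *Tbr2* allele or Cre. The other 5 arrays came from *Tbr2* conditional knockout embryos (*Tbr2* cKO, 2 embryos) and from *Tbr1/2* double mutants (dKO, 3 embryos, *Tbr1*-/-;*Tbr2* 2F/2F;Nes11Cre), in which Cre driven by nestin sequences recombines *Tbr2* in neural progenitors. They served here as a second measurement of *Tbr1* loss, in embryos without *Tbr2*.

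Tbr1 is a T-box transcription factor of early-born glutamatergic projection neurons. It is present in the preplate, in subplate and Cajal-Retzius neurons, and in layer 6, whose neurons project to the thalamus. T-box proteins bind a short DNA motif and can activate or repress transcription. In mouse neocortex Tbr1 is known for its part in reelin expression, in layering, and in the choice between corticothalamic and subcerebral axon projections.

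Log2 RMA values of 14860 genes with 1 symbol in the probe annotation were tested. RMA is a procedure that corrects background, gives all arrays 1 distribution of values and combines the probes of a gene. The log2 fold change (log2FC) is the mean of the *Tbr1* KO arrays minus that of the controls, so that a value of 1 stands for a 2-fold difference. Genes were called where limma gave a p under 0.05 after Benjamini-Hochberg adjustment over the whole set, and every adjusted p below is from that fit. Array medians lay between 8.15 and 8.25, and any pair of the 7 arrays correlated at 0.993 to 0.997 across genes, which are not independent replicates. The mean of 7 neocortical markers, among them *Neurod2*, *Neurod6* and *Emx2*, was 12.03 to 12.06 in *Tbr1* KO, within the range of the controls (12 to 12.08). No marker of subpallium and GABAergic neurons (14 measured), hippocampus and hem (11), choroid plexus (9), meninges (15), vessels (15), blood (4), microglia (10) or glial lineages (8) was called. The mean of the hippocampal and hem markers varied between embryos more than the others, with 8.23 and 8.39 in 2 *Tbr1* KO embryos, 9.16 in the other two, and 8.04, 8.51 and 8.92 in controls. Y-linked genes were high in 2 of 4 *Tbr1* KO and 2 of 3 control embryos. All 92 called genes had the same sign of change in embryos with and without them. That was fixed in advance, because the 4 *Tbr1* KO embryos lay on one side of the 3 controls in each called gene. It is therefore no measure of the part of sex. With the Y-linked signal as a covariate, 73 genes were called, 72 of them among the 92.

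*Tbr1* mRNA itself measured 9.91, 10.06, 9.76 and 9.79 in the 4 *Tbr1* KO embryos and 11.01, 10.96 and 10.88 in the 3 controls. The groups did not overlap, and the mutant level was lower by a factor of 2.1 (log2FC = -1.07, standard error 0.08, adjusted p = 0.000169). The sources do not say where the probes lie relative to the targeted part of the gene, so the values check the direction of the labels but not the loss of the protein.

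Of the genes tested, 92 (0.619%) were called, 60 lower (0.404%) and 32 higher (0.215%) in *Tbr1* KO. Every count of called members of a gene list below is to be read beside these shares. The lists were chosen with earlier results of these data known. A larger share of called members in a list is therefore no test of a gene family. Without correction for the number of genes, 968 (6.51%) had a p under 0.05, 453 higher (3.05%) and 515 lower (3.47%). The lower genes had a median log2FC of -0.77 and the higher genes of 0.63, beside -0.01 over all genes, and 16 lower and 8 higher genes differed by at least 2-fold. For every called gene, all *Tbr1* KO embryos lay on one side of all controls, as they did for 7.49% of all genes (3.47% above and 4.02% below the controls). An exact permutation test of 4 embryos against 3 cannot give a two-sided p below 0.0571, a value that each called gene reached. Leaving out 1 control changed the number called the most among these 7 arrays, to 54 without control 1 and 49 without control 2. In whole tissue, fewer cells of a type and less RNA per cell cannot be told apart.

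**Figure D1:**
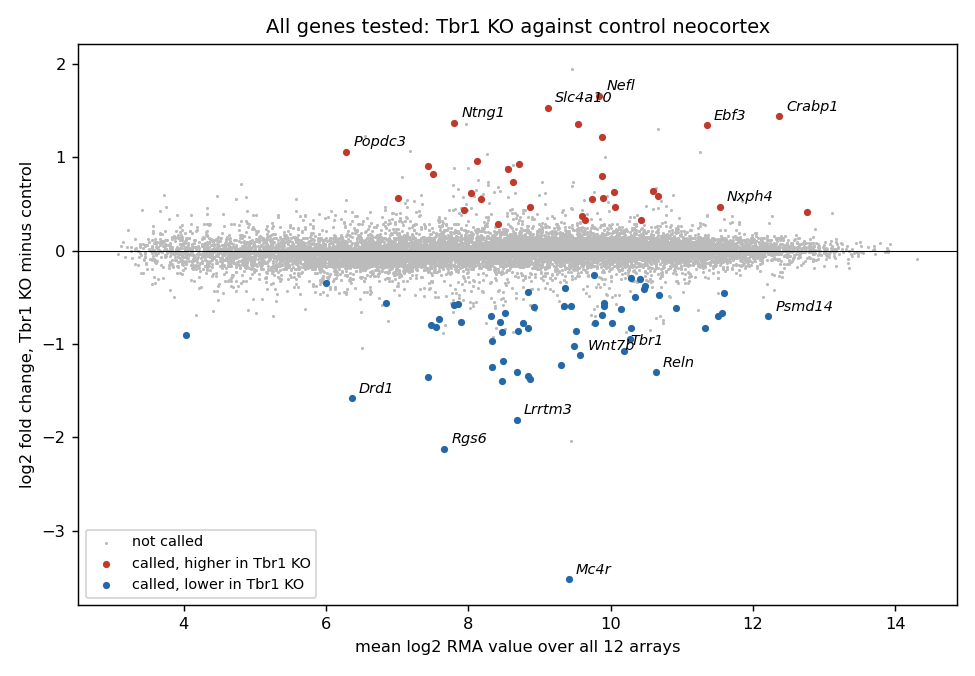
Log2 fold change in *Tbr1* KO neocortex (vertical axis) against the mean log2 RMA value over all 12 arrays (horizontal axis) for 14860 genes, 1 point per gene. The 32 called higher genes are red and the 60 called lower genes blue, and *Mc4r* stands lowest at -3.52.

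The genes that fell the most included those of receptors and of a regulator of their signals. *Mc4r*, the gene of melanocortin receptor 4, a Gs-coupled receptor best known for hypothalamic control of food intake, measured 8.27, 8.11, 8.20 and 7.85 in *Tbr1* KO and 11.47, 11.71 and 11.71 in controls. The difference was 11.5-fold (log2FC = -3.52, standard error 0.12, adjusted p = 1.1e-07), the largest decrease among all genes tested. The other melanocortin receptor genes, *Mc1r*, *Mc2r*, *Mc3r* and *Mc5r*, had log2FC between -0.18 and 0.10 and were not called. Of 31 peptide receptor genes measured, the only other one called was *Ntsr1*, the gene of neurotensin receptor 1 and a marker of corticothalamic neurons. It measured 8.71, 8.50, 8.69 and 8.18 in *Tbr1* KO and 9.57, 9.32 and 9.23 in controls (log2FC = -0.86, standard error 0.13, adjusted p = 0.0134). The list thus held 2 called genes of 31, beside 0.619% of all genes, and had a median log2FC of -0.04.

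*Rgs6*, whose protein shortens G-protein signals by speeding GTP hydrolysis on Gαi/o subunits, measured 7.14, 7.13, 7.01 and 6.88 in *Tbr1* KO and 9.18, 9.24 and 9.04 in controls. It fell 4.33-fold (log2FC = -2.12, standard error 0.10, adjusted p = 3.04e-06). Of 18 genes of RGS proteins and their partners, 2 were called, both lower, beside 0.404% of all genes. The second was *Rgs16* with a small decrease (log2FC = -0.30, standard error 0.05, adjusted p = 0.0221). *Drd1*, the gene of the D1 dopamine receptor, measured 6.08, 6.16, 5.32 and 5.83 against 7.43, 7.48 and 7.36 in controls. The groups did not overlap (log2FC = -1.58, adjusted p = 0.000968), but whether values this low lie above the background of the probes was not tested. *Gnal*, which encodes the Gα subunit that couples D1 receptors to adenylyl cyclase in striatum, and *Htr2a*, the gene of a Gq-coupled serotonin receptor, were also lower (log2FC = -0.83 and -0.58), and were picked out after their values were seen. *Ngfr*, the gene of the p75 neurotrophin receptor, which marks early subplate neurons, measured 8.20 to 8.57 in *Tbr1* KO and 9.65 to 9.93 in controls (log2FC = -1.34, adjusted p = 0.000165).

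Among secreted proteins, *Reln* and *Wnt7b* fell. *Reln* encodes reelin, the glycoprotein that Cajal-Retzius neurons release and that directs neuronal layering. It measured 10.29, 10.36, 10.46 and 10.60 in *Tbr1* KO and 11.70, 11.74 and 11.74 in controls, a 2.46-fold decrease (log2FC = -1.30, standard error 0.21, adjusted p = 0.0152). The adjusted p passed 0.05 without *Tbr1* KO replicate 1 and without any one of the controls, up to 0.0799 without control 2. The reelin receptor genes *Vldlr* and *Lrp8* and the adaptor gene *Dab1* were not called (log2FC = -0.05, -0.16 and 0.03), and *Reln* was the only one called of 15 migration and reelin response genes. *Wnt7b*, a Wnt ligand of cortical neurons, measured 9.49 to 9.58 in *Tbr1* KO and 10.58 to 10.70 in controls (log2FC = -1.12, standard error 0.11, adjusted p = 0.000603). It was the only one called of 27 Wnt pathway genes, a list with a median log2FC of 0.03. *Lpl*, which encodes lipoprotein lipase, measured 8.29 to 8.60 against 9.74 to 10.05 (log2FC = -1.37, adjusted p = 0.000169), and the other 16 lipid handling genes measured were not called. *Cck*, the gene of the neuropeptide cholecystokinin, also fell (log2FC = -0.76, adjusted p = 0.0236).

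The largest remaining decreases included 2 transcription factor genes. *Bcl6*, the gene of a zinc-finger repressor that promotes neuronal differentiation in cortex, measured 8.09, 8.45, 8.35 and 8.49 in *Tbr1* KO and 9.38, 9.65 and 9.54 in controls (log2FC = -1.18, standard error 0.09, adjusted p = 0.000169). *Nfe2l3*, the gene of a basic leucine zipper factor, measured 8.02 to 8.38 against 9.52 to 9.66 (log2FC = -1.40, adjusted p = 0.000171). The groups did not overlap for either gene. *Mlip*, which encodes a lamin-interacting protein, *Tmtc1*, for an O-mannosyltransferase of the endoplasmic reticulum, *Necab1*, for a neuronal calcium-binding protein, and *Lratd1* completed the 15 largest decreases, with log2FC of -1.35, -1.30, -1.25 and -1.22.

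**Figure D2:**
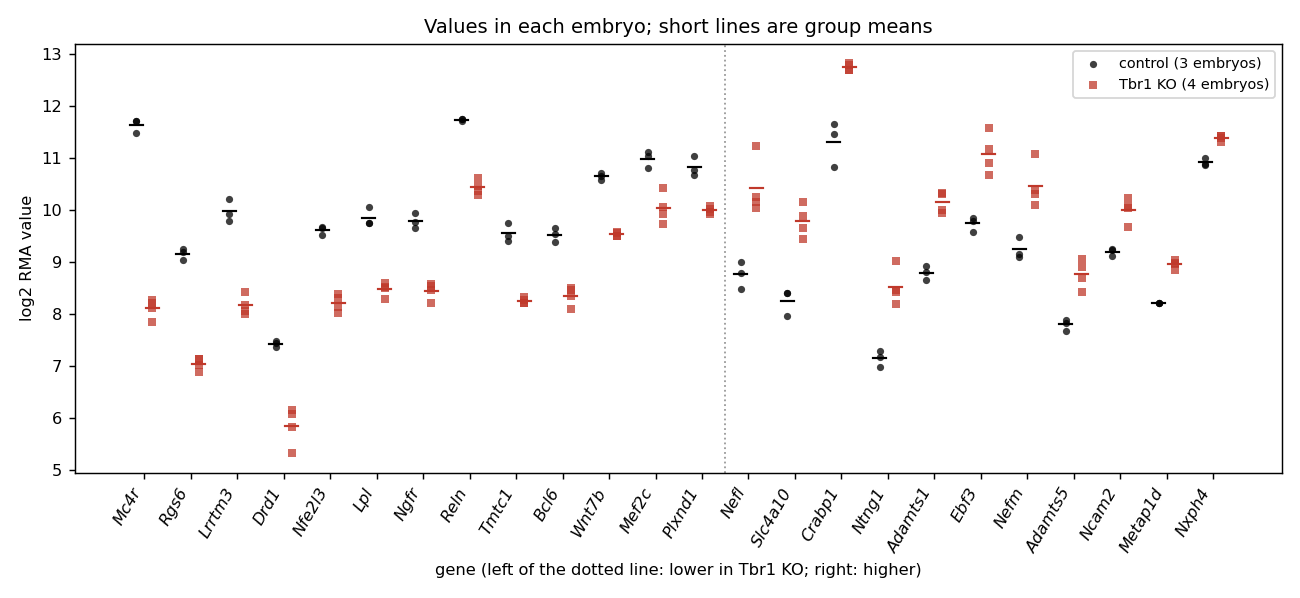
Log2 RMA values (vertical axis) of 24 called genes (horizontal axis) in each of 3 control embryos (black circles) and 4 *Tbr1* KO embryos (red squares), with short lines at the group means. The groups do not overlap for any of them, and for *Nefl* 1 *Tbr1* KO embryo at 11.22 lies above the other 3 at 10.04 to 10.25.

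The genes that rose the most included neurofilament and axonal surface genes. *Nefl*, for the light neurofilament subunit, measured 11.22, 10.15, 10.25 and 10.04 in *Tbr1* KO and 9.0, 8.48 and 8.79 in controls (log2FC = 1.66, standard error 0.28, adjusted p = 0.0236). *Nefm*, for the medium subunit, measured 11.08, 10.38, 10.30 and 10.10 against 9.48, 9.15 and 9.10 (log2FC = 1.22, standard error 0.20, adjusted p = 0.0189). In both genes the same embryo, *Tbr1* KO replicate 1, was highest, and without control 2 the adjusted p rose to 0.135 for *Nefl* and 0.101 for *Nefm*. They were the only called genes among 15 pan-neuronal genes, whose median log2FC was -0.09. *Ina*, for the third neurofilament-type protein of young neurons, had a log2FC of 0.01, and *Dcx*, *Map2* and *Mapt* had -0.09, -0.10 and -0.04.

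*Ntng1*, the gene of netrin-G1, a membrane-anchored protein of thalamocortical and other axons, measured 9.01, 8.42, 8.46 and 8.19 in *Tbr1* KO and 7.29, 7.17 and 6.98 in controls. The increase was 2.59-fold (log2FC = 1.37, standard error 0.17, adjusted p = 0.00289), and of 20 netrin, slit and draxin guidance genes it was the only one called. *Ncam2*, for a neural cell adhesion molecule, measured 9.66 to 10.22 against 9.12 to 9.25 (log2FC = 0.80, adjusted p = 0.0115), the only one called of 18 immunoglobulin adhesion genes. *Ebf3*, which encodes a helix-loop-helix factor of Cajal-Retzius and other early neurons, measured 11.57, 10.89, 11.16 and 10.67 against 9.58, 9.78 and 9.85 (log2FC = 1.34, standard error 0.17, adjusted p = 0.00356). *Ebf1* and *Ebf2*, of the same family, had log2FC of 0.54 and -0.14 and were not called. *Crabp1*, for a cytoplasmic protein that binds retinoic acid, measured 12.69 to 12.81 in *Tbr1* KO and 10.83, 11.64 and 11.46 in controls (log2FC = 1.44, adjusted p = 0.0189), with control 1 the lowest.

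*Ptprn*, for a receptor-like phosphatase of dense-core vesicles, *Cpne4*, for a calcium-dependent membrane-binding copine, and *Vav3*, for a guanine nucleotide exchange factor, had log2FC of 0.93, 0.87 and 0.82. *Popdc3* and *Tmcc3* had 1.06 and 0.91, and in each of these 5 genes the 4 *Tbr1* KO embryos exceeded all controls.

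Genes of the pericellular matrix moved in both directions. *Adamts1* and *Adamts5*, whose proteases cleave versican and related lecticans, rose. *Adamts1* measured 9.94 to 10.32 in *Tbr1* KO and 8.64, 8.91 and 8.80 in controls (log2FC = 1.36, standard error 0.22, adjusted p = 0.0213). *Adamts5* measured 8.89, 9.05, 8.42 and 8.69 against 7.83, 7.89 and 7.67 (log2FC = 0.96, standard error 0.13, adjusted p = 0.00447). *Vcan*, the gene of versican itself, was lower, at 10.76, 10.41, 11.03 and 10.92 against 11.82, 11.67 and 11.36 (log2FC = -0.83, standard error 0.15, adjusted p = 0.0335). *Adamts18*, for a protease of the same family, was lower as well (log2FC = -0.78, adjusted p = 0.00318). With these, 4 of 13 matrix protease and lectican genes were called, 2 in each direction, at a list median of -0.02, beside 0.404% lower and 0.215% higher among all genes. The list was chosen with earlier results of these data known, so the count is no test of the family.

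Of 23 synaptic adhesion genes, 4 were called, a pair of one family lower and a pair of another higher, beside 0.404% lower and 0.215% higher among all genes. *Lrrtm3* and *Lrrtm4*, for leucine-rich postsynaptic proteins that bind neurexins or heparan sulfate proteoglycans, fell. *Lrrtm3* measured 8.16, 8.06, 8.42 and 8.0 in *Tbr1* KO and 9.91, 10.21 and 9.78 in controls, a 3.5-fold decrease (log2FC = -1.81, standard error 0.15, adjusted p = 0.000171), and *Lrrtm4* had a log2FC of -0.87 (adjusted p = 0.000241). *Lrrtm2* and *Lrrtm1* were not called (log2FC = -0.64 and 0.26). *Slitrk3* and *Slitrk5*, for another family of leucine-rich synaptic proteins, rose (log2FC = 0.58 and 0.37, adjusted p = 0.0314 and 0.00753). *Slitrk1* and *Slitrk4* had log2FC of 0.12 and 0.03. The list median was -0.08.

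Among guidance receptors, *Plxnd1* and *Plxna4*, for plexins that transduce semaphorin signals, fell and were the only called genes of 22 semaphorins and plexins. The counts in the lists of this paragraph stand beside 0.404% lower and 0.215% higher among all genes. *Plxnd1* measured 9.92 to 10.08 in *Tbr1* KO and 10.67 to 11.03 in controls (log2FC = -0.83, standard error 0.09, adjusted p = 0.00184). *Plxna4* measured 11.09 to 11.48 against 11.70 to 11.97 (log2FC = -0.61, adjusted p = 0.0189). *Cdh12* and *Cdh4*, 2 of 19 cadherin genes, were lower (log2FC = -0.73 and -0.50), but *Cdh4* lost its call in 10 of 12 fits that each left out 1 embryo. *Efna5*, for the repulsive ligand ephrin-A5, was the only one called of 17 ephrin and Eph genes and was higher (log2FC = 0.47, adjusted p = 0.0217). *Kcnv1*, for a modifier subunit of voltage-gated potassium channels, was the only one called of the 25 potassium channel genes listed and was lower (log2FC = -0.97, adjusted p = 0.00318). *Kcnk12*, a potassium channel gene outside the list, was also called lower, just under the threshold (log2FC = -0.44, adjusted p = 0.0484). No member of the lists of glutamate receptor (17 measured), GABA receptor (8) or vesicle and transmitter transport genes (25) was called. *Stxbp6*, for a syntaxin-binding protein and outside these lists, was higher (log2FC = 0.55, adjusted p = 0.000759).

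Genes that mark classes of cortical neurons were then compared by list, beside the 0.619% called among all genes. Of 15 corticothalamic and early-born neuron genes, 3 were called, all lower: *Tbr1* itself, *Ntsr1* and *Lmo3*, for a LIM-only transcriptional cofactor. *Lmo3* measured 11.31, 11.20, 10.95 and 10.78 in *Tbr1* KO and 11.80, 11.79 and 11.68 in controls (log2FC = -0.70, adjusted p = 0.0144). *Tle4*, for a corepressor of layer 6 neurons, measured 10.38 to 10.61 against 10.88 to 11.06 without overlap, and missed the threshold narrowly (log2FC = -0.48, standard error 0.09, adjusted p = 0.0509). *Sox5*, for an SRY-box factor of deep-layer neurons, had a log2FC of -0.45 (adjusted p = 0.482), and *Foxp2*, for a forkhead factor of layer 6, of 0.07 (adjusted p = 0.967). The list median was -0.16, and in 7 of the 15 genes all *Tbr1* KO embryos lay below all controls, in 1 above, beside 4.02% and 3.47% of all genes. Members ranged in log2FC from -1.07, that of *Tbr1*, to 1.00 in a gene that was not called. *Tbr1*, the mutated gene, is counted among the called genes, among those below controls and in the median.

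Of 13 subcerebral layer 5 genes, *Bcl6* was lower and *Tcerg1l* higher (log2FC = 0.55, adjusted p = 0.0434), at a list median of -0.02. All *Tbr1* KO embryos lay above all controls in 5 of the 13 and below in 3, beside 3.47% and 4.02% of all genes. An unadjusted p under 0.05 was found in 4 higher and 3 lower genes, beside 3.05% and 3.47% of all genes. *S100a10*, for a small partner protein of annexin A2, measured 12.14, 12.08, 11.65 and 11.48 in *Tbr1* KO and 10.48, 11.02 and 10.84 in controls (log2FC = 1.06, adjusted p = 0.136). *Npr3*, *Lmo4* and *Chst8* also lay above controls without being called (log2FC = 0.76, 0.30 and 0.20), and *Ldb2*, for a LIM-domain-binding cofactor, below (log2FC = -0.70). *Fezf2*, the gene of a zinc-finger factor that specifies subcerebral projection neurons, measured 12.76 to 12.93 in *Tbr1* KO and 12.86 to 12.91 in controls (log2FC = -0.04, 95% interval -0.15 to 0.08). *Bcl11b*, for the zinc-finger factor Ctip2 of the same neurons, measured 11.10, 11.15, 10.70 and 10.92 against 11.33, 11.30 and 11.33 (log2FC = -0.35, 95% interval -0.60 to -0.11, adjusted p = 0.412). The intervals are those of the single gene. Of 18 upper-layer and callosal genes, 3 were called, all lower: *Mef2c* and *Rorb*, for a MADS-box factor and a nuclear receptor of maturing neurons, and *Plxnd1*. The list median was -0.11, and 7 of the 18 lay below all controls and 1 above, beside 4.02% and 3.47% of all genes. Members ranged in log2FC from -0.95 to 0.57. At an unadjusted p under 0.05 there were 2 higher and 7 lower genes, beside 3.05% and 3.47% of all genes. *Mef2c* measured 10.42, 10.05, 9.92 and 9.72 against 11.10, 11.04 and 10.81 (log2FC = -0.95, standard error 0.15, adjusted p = 0.0132), and *Rorb* had a log2FC of -0.70 (adjusted p = 0.0455). *Cux1*, *Cux2* and *Pou3f2*, for homeodomain and POU factors of upper layers, had log2FC of -0.02, -0.14 and -0.14.

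Of 16 subplate genes, *Lpl* was lower and *Nxph4* higher. *Nxph4*, for a neurexophilin that binds α-neurexins, measured 11.38 ± 0.05 in *Tbr1* KO (SD, n = 4) and 10.91 ± 0.08 in controls (SD, n = 3) without overlap (log2FC = 0.47, standard error 0.06, adjusted p = 0.0024), while *Nxph3* of the same family fell (log2FC = -0.76, adjusted p = 0.000727). *Nr4a2* and *Ccn2*, which are widely used subplate markers, had log2FC of -0.15 and -0.06. The median of the subplate list was -0.06, with members from -1.37 to 0.70. In 3 of the 16 genes all *Tbr1* KO embryos lay above all controls and in 2 below, beside 3.47% and 4.02% of all genes. *Ngfr*, given above, is not in this list. Of 14 Cajal-Retzius genes, *Reln* was lower and *Ebf3* higher, and *Trp73*, *Lhx1* and *Lhx5* had log2FC of -0.26, -0.18 and -0.53 and were not called. The median of the Cajal-Retzius list was -0.16. In 5 of the 14 genes all *Tbr1* KO embryos lay below all controls and in 2 above, beside 4.02% and 3.47% of all genes.

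No member of the progenitor lists was called: none of 17 intermediate progenitor genes, of 17 radial glial genes and of 13 proliferation genes. At most 0.20 on the log2 scale separated any of these listed genes from controls, and genes outside the lists were not examined as progenitor genes. *Eomes* (*Tbr2*) measured 11.56, 12.11, 11.73 and 12.14 in *Tbr1* KO and 12.10, 11.70 and 12.13 in controls (log2FC = -0.09, 95% interval -0.58 to 0.39). *Pax6* had a log2FC of 0.16 (adjusted p = 0.783). Both sets of embryos overlapped for each gene.

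Genes that earlier work in mouse has tied to Tbr1 were also listed. Of 16 measured, *Reln* was lower and *Ntng1* higher, at a list median of -0.10. All *Tbr1* KO embryos lay below all controls in 6 of the 16 and above in 1, beside 4.02% and 3.47% of all genes. An unadjusted p under 0.05 with a lower level was found in 6, beside 3.47% of all genes. The secreted-protein gene *Ndnf*, a marker of Cajal-Retzius neurons, had a log2FC of -0.80 (adjusted p = 0.136), and *Tle4*, *Sox5* and *Bcl11b*, given above, are in this list too. *Grin2b*, for an NMDA receptor subunit, measured 10.09, 9.81, 9.62 and 9.37 in *Tbr1* KO and 10.59, 10.46 and 10.01 in controls (log2FC = -0.63, standard error 0.20, adjusted p = 0.41), with overlap between the groups. *Cdh8*, for a cadherin, and *Cntn2*, for the axonal adhesion protein TAG-1, had log2FC of -0.04 and -0.27 (adjusted p = 0.984 and 0.859).

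**Figure D3:**
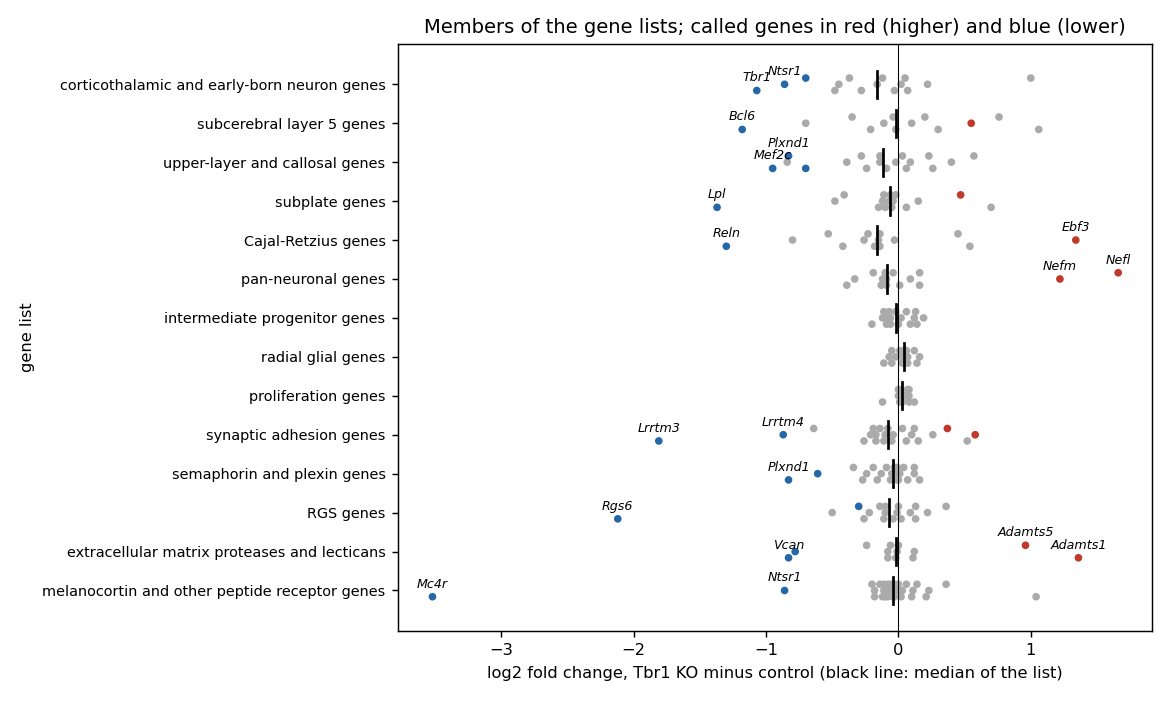
Log2 fold change in *Tbr1* KO neocortex (horizontal axis) of the measured members of 14 gene lists (vertical axis), 1 point per gene, with called genes in red (higher) and blue (lower) and a black line at the median of each list. List medians lie between -0.16 and 0.04, and members of the progenitor lists stay within 0.20 of 0.

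The dependence of single calls on single embryos was examined by leaving out each of the 12 embryos in turn. Of 51 named genes that were called, 28 kept the call each time, among them *Mc4r*, *Rgs6*, *Lrrtm3*, *Lrrtm4*, *Drd1*, *Lpl*, *Ngfr*, *Bcl6*, *Wnt7b*, *Tbr1*, *Slc4a10*, *Psmd14*, *Ntng1*, *Ebf3*, *Adamts5*, *Metap1d*, *Nxph4* and *Plxnd1*. The other 23 lost it at least once, each of them without at least 1 of the controls. The highest adjusted p was 0.246 for *Rorb*, 0.236 for *Tcerg1l*, 0.21 for *Cdh4*, 0.198 for *Vcan*, 0.125 for *Adamts1*, 0.123 for *Plxna4* and 0.0816 for *Crabp1* and *Mef2c*, each without control 1. It was 0.123 for *Rgs16* and *Vav3*, 0.0867 for *Lmo3* and 0.0785 for *Ntsr1*, also without control 1. It was 0.143 for *Slitrk3* without control 3, and 0.134 for *Cck*, 0.124 for *Cpne4*, 0.0979 for *Efna5*, 0.0894 for *Necab1*, 0.0756 for *Ncam2*, 0.0628 for *Lratd1* and 0.0506 for *Slitrk5* without control 2. No named gene that was called changed direction.

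Of the marker lists for neighbouring tissues, only that of mitral cells and lateral pallium held called genes, 2 of 11 (*Lmo3* and *Rorb*, both lower), beside 0.404% of all genes. The list mean was 9.33 to 9.47 in *Tbr1* KO and 9.52 to 9.75 in controls, without overlap. That mean includes the 2 called genes, so it is no separate measurement. *Lmo3* is also in the corticothalamic list and *Rorb* in the upper-layer list. The defining markers *Tbx21* and *Cdhr1* were not called (log2FC = -0.11 and 0.05). The meningeal marker *Dcn* had the highest log2FC of all genes tested, 1.94, but varied between embryos and was not called (adjusted p = 0.67). The part of these tissues in the differences above was not tested beyond a fit with the mean of the hippocampal and hem markers as a covariate, in which 93 genes were called, 79 of them among the 92.

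Genes beside *Tbr1* on chromosome 2 were examined because the mutant allele is inherited together with the sequence around it. In the order of tested genes, *Psmd14* lies next to *Tbr1* on one side and *Slc4a10* on the other. *Psmd14*, for a deubiquitinating subunit of the proteasome lid, measured 11.84, 11.84, 11.86 and 12 in *Tbr1* KO and 12.57, 12.54 and 12.64 in controls (log2FC = -0.70, standard error 0.06, adjusted p = 0.000234). *Slc4a10*, for a sodium-coupled bicarbonate transporter of neurons, measured 10.14, 9.87, 9.65 and 9.44 against 8.39, 8.39 and 7.95 (log2FC = 1.53, standard error 0.15, adjusted p = 0.000727). Both immediate neighbours were therefore called, in opposite directions, whereas none of the other 18 among the 10 genes on each side was. *Slc4a10* was the only called one of 12 bicarbonate and proton transport genes. *Metap1d*, for a mitochondrial methionine aminopeptidase, lies 46 tested genes away on the same chromosome and measured 8.85, 9.03, 8.97 and 8.95 against 8.20, 8.20 and 8.21 (log2FC = 0.74, standard error 0.06, adjusted p = 0.000169). Over the whole of chromosome 2, 7 of 1280 genes were called (0.547%), close to the share in all genes. An effect of the targeted allele or of linked sequence cannot be told apart here from an effect of losing the protein.

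**Figure D4:**
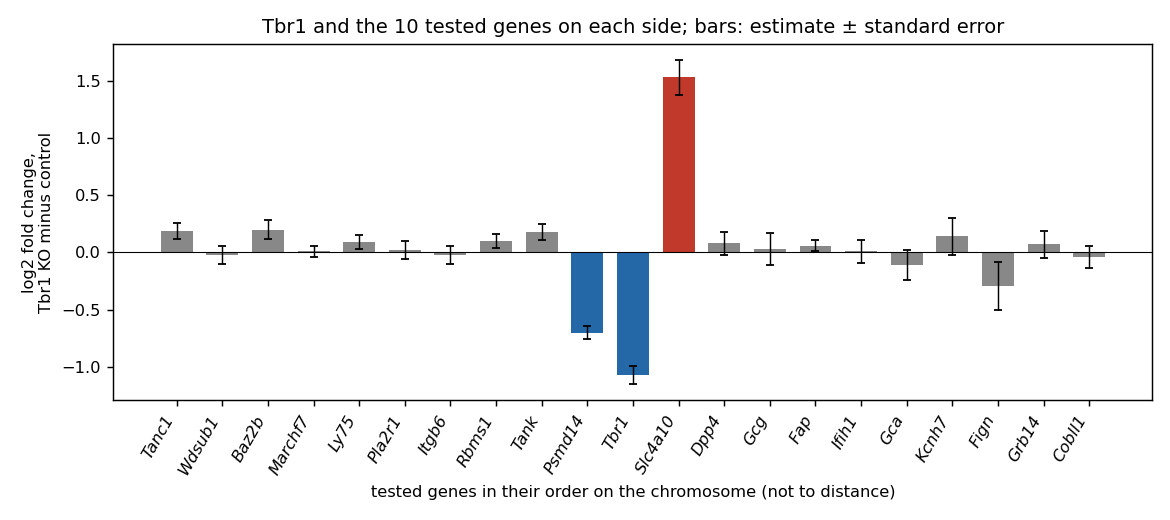
Log2 fold change in *Tbr1* KO neocortex (vertical axis, bars, with standard errors) of *Tbr1* and the 10 tested genes on each side of it in their order on chromosome 2 (horizontal axis, not to distance). *Psmd14* (-0.70) and *Slc4a10* (1.53), on either side of *Tbr1* (-1.07), are the only other called genes.

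Promoters of the called genes were searched for the T-box motif AGGTGTGA and for its core GGTGTG, on both strands, from 250 bases before to 50 after the gene start in the RefSeq promoter table (build GRCm38.p6). The core lies within the longer motif. The longer motif was in 2 of 46 promoters of lower genes (4.35%), *Lratd1* and *Lmo3*, and in 0 of 26 of higher genes, beside 161 of 11894 promoters of all tested genes (1.35%). The core was in 11 of the 46 (23.9%) and 7 of the 26 (26.9%), beside 21.5% of all, so that its share was near the background in both directions. Stretches of 100 bases upstream of the start are shown for both genes with the longer motif, and for *Ntsr1*, *Mef2c* and *Slc4a10*, which hold the core only. Capitals mark the match, and each is written 5′ to 3′ on the strand of the gene, where *Lratd1* carries the motif as its reverse complement.
*Lratd1*, chr12:14152189-14152288, minus strand: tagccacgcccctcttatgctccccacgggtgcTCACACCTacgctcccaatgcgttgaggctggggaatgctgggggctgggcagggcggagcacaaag
*Lmo3*, chr6:138581969-138582068, minus strand: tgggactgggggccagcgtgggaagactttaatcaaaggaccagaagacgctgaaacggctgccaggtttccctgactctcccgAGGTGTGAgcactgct
*Ntsr1*, chr2:180499876-180499975, plus strand: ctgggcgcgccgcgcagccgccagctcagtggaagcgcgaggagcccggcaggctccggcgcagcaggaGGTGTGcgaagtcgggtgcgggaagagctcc
*Mef2c*, chr13:83523406-83523505, plus strand: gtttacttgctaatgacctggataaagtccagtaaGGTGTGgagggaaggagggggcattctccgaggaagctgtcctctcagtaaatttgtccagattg
*Slc4a10*, chr2:62046351-62046450, plus strand: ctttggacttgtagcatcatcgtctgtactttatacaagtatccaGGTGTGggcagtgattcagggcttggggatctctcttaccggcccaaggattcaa
The first 4 genes fell and the last rose. A match of letters describes these promoters and is no evidence of binding.

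The same loss was measured a second time by comparing the 3 dKO embryos with the 2 *Tbr2* cKO embryos, which differ in *Tbr1* and share no array with the comparison above, though all arrays enter 1 estimate of the spread. Of the 92 called genes, 87 (94.6%) had the same sign there, 57 of the 60 lower and 30 of the 32 higher, against 56.4% of all genes. Markers of other tissues stood apart in 2 of these 5 arrays: the meningeal mean was 8.43 in *Tbr2* cKO replicate 1 and 8.44 in dKO replicate 1, against 7.30 to 7.64 in the other 10 arrays, and the choroid plexus mean was 8.39 in *Tbr2* cKO replicate 1, against 6.75 to 7.25 in the other 11. The share with the same sign was 92.0% without *Tbr2* cKO replicate 1 and 89.8% without dKO replicate 1, each over the genes called in that fit. With an unadjusted p under 0.05 there, as for 6.22% of all genes (4.3% higher and 1.92% lower), 53 of the 92 had the same sign. The 5 with the opposite sign were *Drd1*, *Lmo3*, *Dpf3*, *Adamts5* and *Prmt6*, none of them called there. Of 16 genes called in dKO against *Tbr2* cKO (0.108%), 13 were among the 92: 11 lower (of 12 lower in all, 0.0808%: *Mc4r*, *Rgs6*, *Nfe2l3*, *Reln*, *Wnt7b*, *Tbr1*, *Lrrtm4*, *Plxnd1*, *Cdh12*, *Plxna4* and *Neto2*) and 2 higher (of 4 in all, 0.0269%: *Metap1d* and *Stxbp6*).

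*Reln* measured 9.71, 8.66 and 9.65 in dKO and 11.39 and 11.32 in *Tbr2* cKO (log2FC = -2.01, standard error 0.25, adjusted p = 0.0101). *Wnt7b* measured 8.13, 8.37 and 8.71 against 9.76 and 9.82 (log2FC = -1.38, standard error 0.13, adjusted p = 0.00295). *Metap1d* measured 8.80, 8.85 and 8.99 against 8.26 and 8.21 (log2FC = 0.65, adjusted p = 0.00594). In each of the 3 genes the change with *Tbr1* loss was present with and without *Tbr2*. The dKO embryos carry the *Tbr1* mutation too. For *Metap1d*, on the same chromosome, an effect of linked sequence therefore cannot be told apart from loss of the protein here either. Among the other large increases, *Nefl*, *Crabp1*, *Ntng1*, *Adamts1* and *Nefm* rose less without *Tbr2* and were not called. Their log2FC in dKO against *Tbr2* cKO were 0.40, 0.24, 0.16, 0.40 and 0.10 (limma, adjusted p = 0.914 to 0.994). *Plxna4* fell by 1.17 on the log2 scale without *Tbr2* (adjusted p = 0.00459) and by 0.61 with it, a difference that was not called (adjusted p = 0.999). The neighbours of *Tbr1* had log2FC of -0.45 (*Psmd14*, adjusted p = 0.0514) and 0.43 (*Slc4a10*, adjusted p = 0.785), in the same directions as before and not called.

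The change was smaller without *Tbr2* in 85 of the 92 genes, with medians of -0.33 for the lower and 0.27 for the higher genes. The genes had been chosen on the first comparison, so smaller values in the second are no measure of an effect of *Tbr2*. The difference between both effects was tested as an interaction over all genes, and 4 genes were called (0.0269%). All 4 fell less where *Tbr2* was absent, and each was already below controls in the *Tbr2* cKO embryos. *Mc4r* measured 10.06 and 9.99 in *Tbr2* cKO and 8.72, 8.50 and 8.31 in dKO (interaction 2.01, adjusted p = 0.00431). *Rgs6* measured 7.57 and 7.94 against 7.06, 6.82 and 6.93 (interaction 1.30, adjusted p = 0.042). *Lpl* measured 8.73 and 8.50 against 8.46, 8.73 and 8.43, with no separation of the genotypes (interaction 1.29, adjusted p = 0.0436). *Bcl6* measured 8.01 and 8.02 against 7.97, 7.94 and 8.0, a difference of -0.04 (interaction 1.13, adjusted p = 0.0436). For *Mc4r* and *Rgs6* a further decrease with *Tbr1* loss was called, whereas for *Lpl* and *Bcl6* none was. *Drd1*, at 6.02 and 6.18 in *Tbr2* cKO and 6.03 to 6.30 in dKO, had an interaction of 1.66 that was not called (adjusted p = 0.16).

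**Figure D5:**
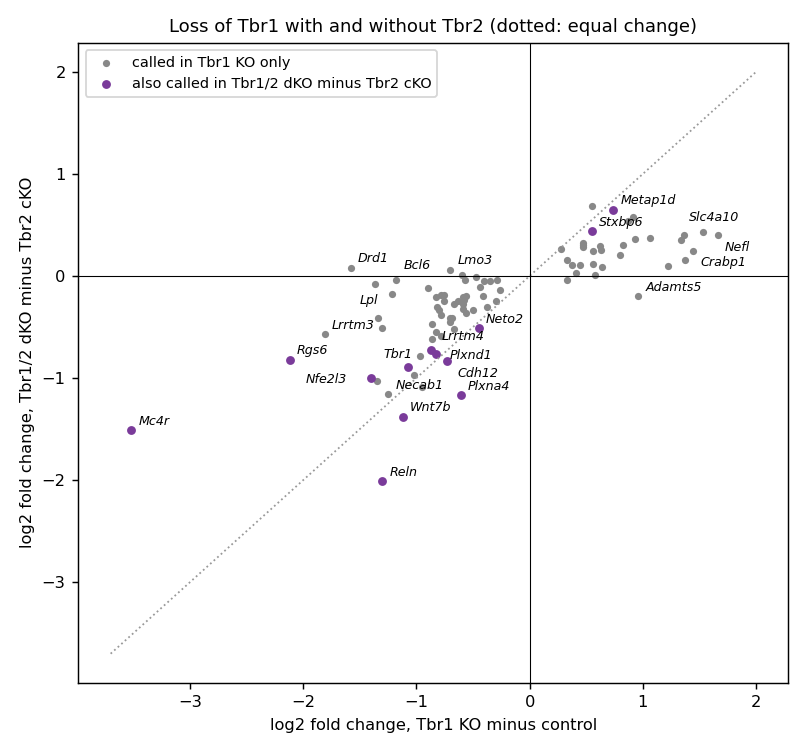
Log2 fold change with loss of *Tbr1* in dKO against *Tbr2* cKO embryos (vertical axis) and in *Tbr1* KO against control embryos (horizontal axis) for the 92 genes called in the latter, 1 point per gene, with a dotted line at equal change. Purple points mark the 13 genes called in both, and 87 of the 92 lie at the lower left or upper right, where both signs are the same.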

How the data were processed

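Affymetrix Mouse Exon 1.0 ST arrays measured neocortex RNA of single E14.5 embryos. Log2 values, which the authors computed with RMA in oligo, were deposited. The sources used here give no versions, settings or genome build. RMA scales arrays to 1 distribution, so that a change shared by most genes would not be seen. Depth does not apply to arrays, and their number limits precision. The labels and methods give 3, 4, 2 and 3 embryos per genotype, whereas the deposited design text gives 4 of each.

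Of 23332 probesets, 14996 had 1 symbol, 1019 had several and 7317 none. For 135 genes with more than 1 probeset, that with the highest mean was used. With limma 3.58.1, 1 model of 4 genotype means was fitted over 12 arrays (R 4.3.3; 8 residual and 2.89 prior degrees of freedom), and p-values were adjusted by Benjamini-Hochberg over 14860 genes. A test on simulated data preceded the fit. Interaction is dKO minus *Tbr2* cKO minus the *Tbr1* KO effect. Gene order came from the RefSeq table of GRCm38.p6, which held 14941 of the probesets with 1 symbol. Python 3.11.15, scipy 1.17.1 and matplotlib 3.10.9 were used for permutation tests and plots.

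Genes and lists (48) were chosen with earlier results of these data known. Named by rule were *Tbr1*, *Eomes* and *Pax6*, in each direction the 15 largest changes among called genes, up to 4 called members of each list, 10 fixed names, the neighbours of *Tbr1* and genes with a called interaction. Other genes, such as members that were not called, were named with their values in view. Alternatives were other probeset summaries, filters, normalizations, priors, weights, covariates and thresholds, a replicate block, a fit of 7 arrays, and leaving out each embryo. Raw intensities were not used.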

Additional observations from a re-analysis of the deposited data

Results flagged for a closer look

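In 2 of the 61 named genes, 1 *Tbr1* KO embryo stood apart from the other 3, and chance alone gives about 1 such gene in 20. *Adamts18* measured 9.67 in *Tbr1* KO replicate 1 and 9.34 to 9.38 in the others. *Psmd14* measured 12 in *Tbr1* KO replicate 4 and 11.84 to 11.86 in the others. In both genes the outlying embryo was nearer to the controls, and the groups still did not overlap.

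In 4 genes the effect of *Tbr1* loss differed between embryos with and without *Tbr2*, by limma's interaction with adjustment over all genes. The difference was 2.01 for *Mc4r* (adjusted p = 0.00431), 1.30 for *Rgs6* (0.042), 1.29 for *Lpl* (0.0436) and 1.13 for *Bcl6* (0.0436).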

How the results depend on the processing

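The 92 calls (32 higher, 60 lower) became 186 with array weights (64 higher, 122 lower, all 92 among them), 56 with the replicate number as a block (19 higher, 37 lower, 50 of them shared) and 968 at an unadjusted p under 0.05 (453 higher, 515 lower, of which 75.4% kept their sign in dKO against *Tbr2* cKO). Leaving out 1 embryo gave 49 to 126 calls, 14 to 49 higher and 35 to 77 lower, with the same sign in 89.8 to 96.8% of them. The lowest counts came without control 2 (49) and control 1 (54), where higher genes were 14 and 17 and lower genes 35 and 37. Higher genes also moved by over 1.5 times without control 3 (15), *Tbr1* KO replicate 1 (18), *Tbr1* KO replicate 3 (19) and dKO replicate 2 (49). The cause was not tested. The other alternatives, and the hippocampal and hem covariate, which was chosen after seeing the data (30 higher, 63 lower), stayed within 1.5 times. In 39 of the 92 genes the call held in all 22 settings with all genes. The 51 named genes that were called kept their direction in all 1149 settings and lost the call in 144. Of 10 named genes that were not called, *Tle4* passed the threshold in 8 settings and *Grin2b* with array weights (log2FC = -0.82, adjusted p = 0.0335). *Eomes* turned to 0.01 without *Tbr1* KO replicate 1 (range over left-out embryos -0.23 to 0.01), and *Cdh8* to 0.01 with the replicate block, 0.04 without *Tbr1* KO replicate 3 and 0.01 without replicate 4 (range -0.15 to 0.04). *Tbr1* KO and control embryos share only numbers in the labels: deviations of same-numbered embryos from their group means correlated at 0.20, 0.03 and 0.13, and the block is not read as a pairing.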
